A study of Mus musculus with 69 samples.

Results

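Hspa8 and 9 other heat shock and cold-inducible genes were followed in the lungs of mice given nano-TiO2. The 10 genes, Hspa8, Hspa1a, Hspa1b, Hsph1, Dnajb1, Hsp90aa1, Hspd1, Hspe1, Cirbp and Rbm3, were picked by their RefSeq symbols and were read by 16 probes of the array, out of 18660 genes tested. The set was put together around Hspa8, whose level in vehicle lungs on day 28 lay above that in lungs given NRCWE-025. Levels on day 28 against vehicle therefore chose the set and are given as a description, with no test. Tests were kept to day 1, to the doses of NRCWE-030 on day 28 compared with each other, and to how the genes varied among the mice of 1 group.

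The mice were female C57BL/6 animals, 5 to 7 weeks old on arrival and acclimatised for 1 to 3 weeks, with no genetic change in any group. Each received a single intratracheal instillation, under anaesthesia, of 18, 54 or 162 µg of titanium dioxide (either NRCWE-025 or NRCWE-030) or of plain vehicle, water with 2% mouse serum, and lungs were taken on day 1 or day 28. That made 14 groups of 5 mice, of which 1, the day 28 group given 162 µg of NRCWE-025, had only 4. The 5 vehicle mice of a day served as controls for both materials, so their values enter both comparisons. RNA came from a small frozen piece of the lung of 1 mouse per array, labelled with Cy5, and was hybridised against a commercial pool of mouse RNA labelled with Cy3. All values below are log2 ratios of lung to that reference, so they compare arrays for 1 gene and do not compare 1 gene with another.

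Heat shock proteins are chaperones, which bind unfolded proteins and help them to fold. Hspa8 (Hsc70) is the form of Hsp70 made by most cells at all times, whereas Hspa1a and Hspa1b, a neighbouring pair of nearly identical genes, are switched on by heat and other stress through the factor HSF1, which binds repeats of the letters GAA in both orientations. Cirbp and Rbm3 encode RNA-binding proteins that are known to be induced by mild cooling, the opposite condition.

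The windows around the starts of these genes are shown because several members varied together, as described below. RefSeq (GRCm38.p6) gave windows of 300 bases, 250 before and 50 after the start, for 7 of the 10 genes, not for Hspa8, Hsp90aa1 or Rbm3. Capitals mark stretches that match the heat shock element, searched as TTCNNGAA, as GAANNTTC and as the longer GAANNTTCNNGAA or its reverse complement TTCNNGAANNTTC, which contain the shorter ones. Sequences run 5′ to 3′ on the strand of the gene.
Hspa1a, chr17:34972107-34972406, minus strand: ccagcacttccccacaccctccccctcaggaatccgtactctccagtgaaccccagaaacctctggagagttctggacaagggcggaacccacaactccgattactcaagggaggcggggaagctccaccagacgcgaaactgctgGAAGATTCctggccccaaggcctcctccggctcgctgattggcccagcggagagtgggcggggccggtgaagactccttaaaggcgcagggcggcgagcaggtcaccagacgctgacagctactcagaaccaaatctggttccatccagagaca
Hspa1b, chr17:34959189-34959488, minus strand: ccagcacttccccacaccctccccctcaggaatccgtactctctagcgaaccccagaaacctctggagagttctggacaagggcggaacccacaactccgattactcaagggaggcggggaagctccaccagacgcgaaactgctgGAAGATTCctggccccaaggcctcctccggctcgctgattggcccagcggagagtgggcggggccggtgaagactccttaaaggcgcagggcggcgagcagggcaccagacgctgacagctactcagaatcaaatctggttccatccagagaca
Hsph1, chr5:149636287-149636586, minus strand: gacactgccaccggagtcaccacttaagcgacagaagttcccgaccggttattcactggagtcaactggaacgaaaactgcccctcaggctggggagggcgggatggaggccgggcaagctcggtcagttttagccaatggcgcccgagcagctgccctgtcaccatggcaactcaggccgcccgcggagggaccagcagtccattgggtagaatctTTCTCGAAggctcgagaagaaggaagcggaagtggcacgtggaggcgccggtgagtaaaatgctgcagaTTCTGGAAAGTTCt
Hspe1, chr1:55087898-55088197, plus strand: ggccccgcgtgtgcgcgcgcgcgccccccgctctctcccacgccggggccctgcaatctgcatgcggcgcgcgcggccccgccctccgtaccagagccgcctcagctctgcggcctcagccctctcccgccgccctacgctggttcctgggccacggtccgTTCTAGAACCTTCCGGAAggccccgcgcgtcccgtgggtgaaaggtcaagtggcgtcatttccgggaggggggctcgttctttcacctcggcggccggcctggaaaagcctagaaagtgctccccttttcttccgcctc
Cirbp, chr10:80167589-80167888, plus strand: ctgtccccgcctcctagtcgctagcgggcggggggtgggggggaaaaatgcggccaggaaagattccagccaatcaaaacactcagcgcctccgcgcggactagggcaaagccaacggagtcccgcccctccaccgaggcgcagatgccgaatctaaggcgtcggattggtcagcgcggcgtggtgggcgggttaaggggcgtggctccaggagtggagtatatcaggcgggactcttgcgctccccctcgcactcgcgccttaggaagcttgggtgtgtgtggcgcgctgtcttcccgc

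GAANNTTC lay in a window of 5 of these 7 genes (Hspa1a, Hspa1b, Hsph1, Hspd1 and Hspe1) and TTCNNGAA in a window of 3 (Hsph1, Hspd1 and Hspe1). Single windows held them in 7.86% and 8.52% of 32851 cases over all mouse genes, and 4 of the 7 genes have 2 windows, so the shares are not on the same footing. The longer motif, held by 0.603% of all windows, lay in those of Hsph1, Hspd1 and Hspe1. Hspd1 and Hspe1 start next to each other on opposite strands, and the second RefSeq window of Hspd1 shares 285 bases with that of Hspe1, so these count the same matches. The windows of Hspa1a and Hspa1b have the same base at 296 of 300 positions (98.7%). Neither window of Cirbp nor of Dnajb1 held a match. A match is a description of letters and says nothing of whether a factor was bound.

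Lung markers (8 of 8 measured, among them the surfactant gene Sftpc and the club cell gene Scgb1a1) averaged between 4.91 and 6.03 above the reference on all 69 arrays. Heart muscle markers (6 genes) ranged from 0.17 to 4.47 and fat markers (5 genes) from 0.41 to 4.97 between arrays. The share of spots clearly above background in the lung colour ran from 49.1% to 72.8%. Of the 16 probes, 14 were well above background in both colours on all 69 arrays. The exceptions were 1 of the 2 Hspa1b probes, which passed on 13 arrays in Cy5, and 1 of the 2 Rbm3 probes, which passed on 27 arrays in Cy5 and 8 in Cy3. In such whole-tissue RNA, fewer cells of a type and less RNA per cell cannot be told apart.

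Hspa8 had its highest group mean in vehicle lungs on day 28, among all 14 groups. The 5 vehicle mice of day 28 read -1.41, -1.36, -1.20, -1.13 and -0.94, a mean of -1.21 ± 0.19 (SD, n = 5). On day 1 the vehicle mice read -2.63, -2.02, -1.77, -1.60 and -1.39, a mean of -1.88 ± 0.48 (SD, n = 5). The vehicle groups of both days overlapped only between -1.41 and -1.39, and the day 28 mean was 0.67 higher.

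On day 28 the treated lungs lay lower for Hspa8 in both materials. With NRCWE-025 the mice read -2.15, -2.01, -1.96, -1.78 and -1.69 at 18 µg, and -2.49, -2.33, -2.29, -1.99 and -1.87 at 54 µg. The 4 mice at 162 µg read -2.63, -2.30, -2.25 and -1.91. No mouse of these 3 groups reached the lowest vehicle mouse, and the means differed from vehicle by -0.71 (SE 0.14), -0.99 (SE 0.14) and -1.06 (SE 0.15) from the lowest to the highest dose. With NRCWE-030 the readings were -2.70, -2.43, -2.19, -2.15 and -1.69 at 18 µg, and -2.29, -2.23, -1.95, -1.78 and -1.55 at 54 µg. At 162 µg they were -2.13, -1.98, -1.91, -1.67 and -1.47. Again no treated mouse reached the vehicle range, with differences of -1.02, -0.75 and -0.62 (SE 0.17) at 18, 54 and 162 µg. Hspa8 thus did not overlap with vehicle in 6 of 6 comparisons on day 28, where 2.38%, 1.21% and 2.29% of all genes did not overlap for NRCWE-025 at the rising doses, and 1.85%, 1.59% and 2.11% for NRCWE-030. Since NRCWE-025 on day 28 chose the gene and NRCWE-030 shares the vehicle mice, nothing is read from this count.

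**Figure D1:**
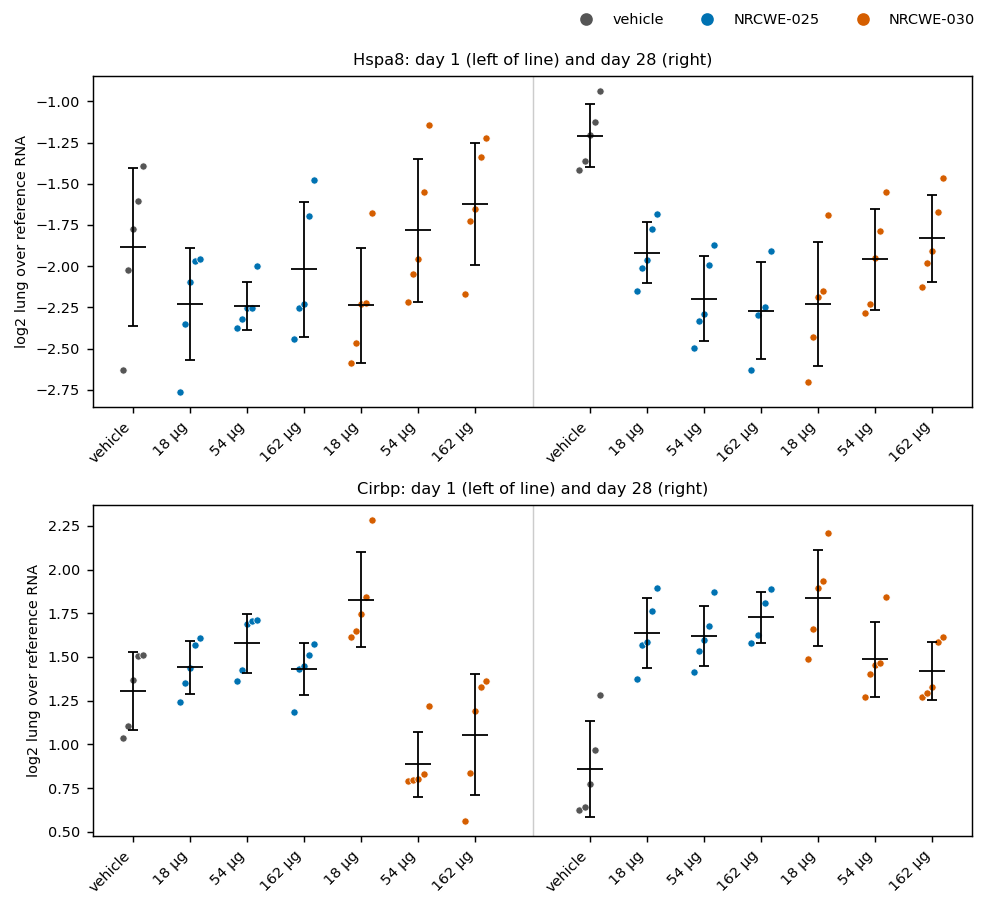
Hspa8 and Cirbp in all 69 arrays by material, dose and day, as log2 lung over reference, with 1 point per mouse and bars for the mean ± SD of a group. Vehicle lungs of day 28 are the highest group for Hspa8 (mean -1.21) and the lowest on that day for Cirbp (mean 0.86).

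By its mean, the day 28 vehicle group stood apart from every other group for Hspa8, but its single mice did not. Among all 69 arrays they ranked 1, 2, 4, 7 and 9 for Hspa8. Ranks 3, 5 and 6 were mice given 54 or 162 µg of NRCWE-030 on day 1, and rank 8 was a day 1 vehicle mouse. These vehicle mice chose the gene, so the step below carries no test. The step from the day 28 vehicle group to the next group in order, NRCWE-030 at 162 µg on day 1, was 0.41, which is 1.11 times the larger SD of that pair. Every other pair of neighbouring groups, for all 10 genes, lay closer than the larger of their SDs. Against the 5 vehicle mice of day 1 instead, a comparison added after seeing the data, the day 28 differences of Hspa8 were -0.03, -0.31 and -0.39 with NRCWE-025, and with NRCWE-030 they were -0.35, -0.08 and +0.05, so the highest dose of NRCWE-030 changed sign. On slides that held both vehicle and treated lungs of day 28, Hspa8 was lower in treated lungs on 2 of 2 slides with NRCWE-025 (differences of -0.90 and -0.86) and on 3 of 3 with NRCWE-030 (-0.94, -0.93 and -0.59). Both Hspa8 probes gave negative differences against day 28 vehicle at every dose. Neutrophil markers (5 genes) averaged between 2.59 and 4.08 in day 28 vehicle lungs and between 2.07 and 3.53 in treated lungs of that day, and fat markers between 1.60 and 4.97 and between 0.87 and 3.61, and their part in the difference was not tested.

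The stress-inducible pair was high in only some of the day 28 vehicle mice. Hspa1a read 0.73, 0.88, 2.20, 2.34 and 2.96 in these 5 mice, a mean of 1.82 ± 0.97 (SD, n = 5), so 3 mice stood well apart from the other two. The 3 high mice, replicates 1, 2 and 3, were among the 4 highest of all 69 arrays for Hspa1a, for Hspa1b and for Dnajb1 alike. Treated groups of day 28 had Hspa1a means between 0.76 and 1.19, and each of them overlapped with the vehicle group. At 18, 54 and 162 µg NRCWE-025 differed from vehicle by -0.93, -0.86 and -1.01, and NRCWE-030 by -1.06, -0.63 and -0.68 (SE 0.30). Hspa1b, on the probe that was well above background on all arrays, averaged 0.72 ± 0.66 (SD, n = 5) in day 28 vehicle lungs and lay between -0.24 and 0.01 in the treated groups of that day. The probes of Hspa1a and Hspa1b may each read both transcripts, so how the signal divides between these genes is uncertain.

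The co-chaperones followed the Hsp70 genes in part. Dnajb1 (Hsp40), which delivers unfolded proteins to Hsp70, read -1.02, -0.91, -0.21, -0.17 and -0.05 in day 28 vehicle lungs, where the 3 upper values belong to the same 3 mice. It differed from vehicle by -0.75, -0.54 and -0.65 with NRCWE-025, by -0.66, -0.29 and -0.39 with NRCWE-030, and the groups were separate only at 18 µg of NRCWE-025. Hsph1 (Hsp110), which helps Hsp70 to release its nucleotide, read -0.49, -0.19, -0.14, -0.11 and 0.07 in vehicle lungs of day 28, with no split among the mice. It was -1.17 away from vehicle at 162 µg of NRCWE-025, where the 4 mice read -1.83, -1.51, -1.18 and -0.87, and at the lower doses of that material the groups overlapped, with differences of -0.29 and -0.47. For NRCWE-030 the Hsph1 differences were -1.25, -1.01 and -0.998, with no overlap at 54 and 162 µg and overlap at 18 µg. Of all genes, 2.38% and 2.29% did not overlap at 18 and 162 µg of NRCWE-025. For NRCWE-030 it was 1.59% at 54 µg and 2.11% at 162 µg. These separations rest on the same vehicle mice, and nothing is read from them.

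The other chaperones were Hsp90aa1, the inducible form of Hsp90, and the mitochondrial pair Hspd1 (Hsp60) and Hspe1 (Hsp10), which fold proteins inside mitochondria. Hsp90aa1 was +0.14, +0.17 and -0.41 away from vehicle on day 28 with NRCWE-025, -0.35, -0.53 and -0.64 with NRCWE-030, and was separate from vehicle at 54 and 162 µg of NRCWE-030. Hspd1 differed by -0.25, -0.20 and -0.46 with NRCWE-025, by -0.39, -0.28 and -0.29 with NRCWE-030, and was separate from vehicle at 162 µg of NRCWE-025 and 18 µg of NRCWE-030. Of all genes, 2.29% were separate at 162 µg of NRCWE-025, and 1.85%, 1.59% and 2.11% at the rising doses of NRCWE-030. Nothing is read from these separations either. Hspe1, although it starts next to Hspd1, stayed between -0.14 and +0.09 of vehicle in all 6 groups. As a description over 69 arrays, deviations of Hspe1 from the group mean had r = 0.55 with those of the heart muscle markers, 0.56 with skeletal muscle markers and 0.48 with fat markers, and those of Hsph1 had 0.36, 0.47 and 0.34. Those of Hspa8 went the other way, with -0.32, -0.26 and -0.28. For the remaining chaperones, r with these markers ran from -0.16 (Dnajb1 with fat) to 0.32 (Hsp90aa1 with skeletal muscle). With B and T cell markers, r was -0.61 for Hspa1b, -0.46 for Hspa1a, -0.45 for Hsp90aa1, -0.43 for Hsph1 and -0.40 for Dnajb1. It was -0.32 for Hspa8, -0.31 for Hspd1 and +0.16 for Hspe1. What part these tissues and cells had in the levels was not tested.

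Cirbp ran opposite to Hspa8 on day 28. The vehicle mice read 0.62, 0.64, 0.77, 0.97 and 1.28, a mean of 0.86 ± 0.28 (SD, n = 5). The treated groups averaged 1.64 ± 0.20, 1.62 ± 0.17 and 1.73 ± 0.15 at 18, 54 and 162 µg of NRCWE-025, and 1.84 ± 0.28, 1.49 ± 0.21 and 1.42 ± 0.17 for NRCWE-030. They were higher by 0.78, 0.76 and 0.87 and by 0.98, 0.63 and 0.56. The groups did not overlap with vehicle in 4 of these 6 comparisons, all except NRCWE-030 at 54 and 162 µg. Of all genes, 2.38%, 1.21% and 2.29% did not overlap for NRCWE-025 at the rising doses, and 1.85% for NRCWE-030 at 18 µg. The same 5 vehicle mice, which chose the set, enter each comparison, so nothing is read from this count. Within slides the treated lungs were higher on 2 of 2 slides for NRCWE-025 (0.81 and 1.10) and on 3 of 3 for NRCWE-030 (0.48, 0.58 and 1.06). Against day 1 vehicle mice the Cirbp differences were 0.33, 0.31 and 0.42 and 0.53, 0.18 and 0.11. Rbm3, the other cold-inducible gene, was -0.06, -0.13 and +0.14 away from vehicle with NRCWE-025, +0.04, +0.39 and +0.31 with NRCWE-030, with no overlap at 54 µg of NRCWE-030. At that dose 1.59% of all genes had no overlap. Within slides Rbm3 was higher in treated lungs on 2 of 2 slides for NRCWE-025 (0.11 and 0.23) and on 3 of 3 for NRCWE-030 (0.12, 0.29 and 0.56).

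**Figure D2:**
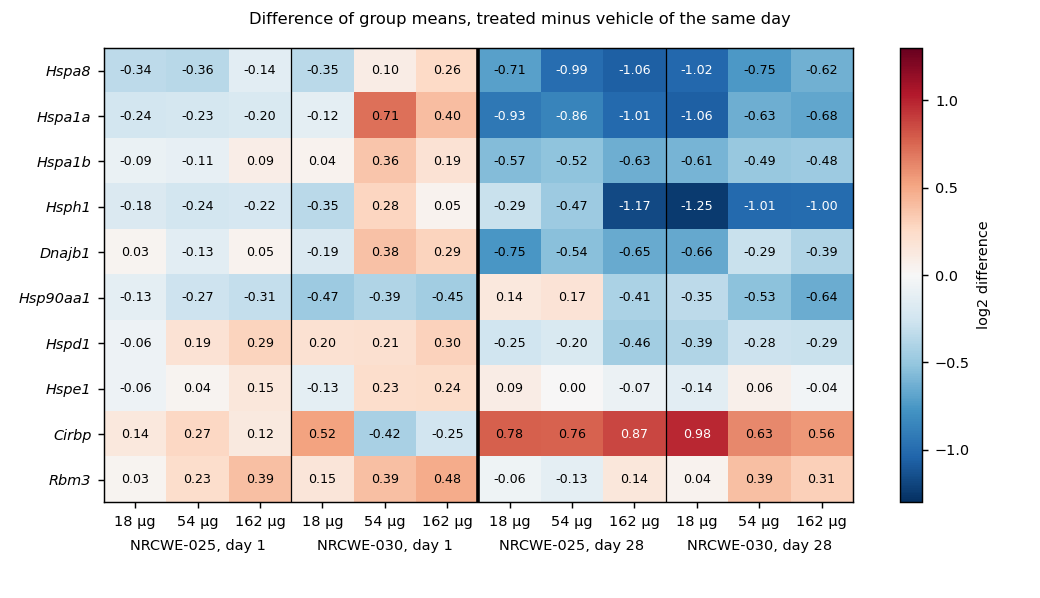
Log2 difference of each of the 10 genes from the vehicle group of the same day, for both materials, days and 3 doses, with colour and number giving the value. On day 28 Hspa8, Hspa1a, Hspa1b, Hsph1, Dnajb1 and Hspd1 are below vehicle and Cirbp above it in all 6 columns, and day 1 shows no such block.

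Among the doses of NRCWE-030 on day 28, where vehicle mice play no part, 0 of the 10 genes differed after adjustment over all genes (limma moderated F-test), against 0.0107% of all genes. At an unadjusted p under 0.05 the count was 4 of 10 (Hspa1a, Dnajb1, Cirbp and Rbm3), against 4.04% of all genes. Between 18 and 162 µg, Hspa8 differed by +0.40 (SE 0.18) and Cirbp by -0.42 (SE 0.13), and neither passed (adjusted p = 0.77 and 0.68, limma).

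The rule for the set used levels of day 28, although earlier results of day 1 were known as well. On day 1 the dose effect was tested with limma's moderated F-test over vehicle, 18, 54 and 162 µg of a material, adjusted over all genes by Benjamini-Hochberg. For NRCWE-030, 1 of the 10 genes was called, Cirbp (adjusted p = 0.015), against 0.954% of all genes. At an unadjusted p under 0.05 the count was 6 of 10 (Hspa1a, Dnajb1, Hsp90aa1, Hspe1, Cirbp and Rbm3), against 11.2% of all genes. For NRCWE-025, 0 of 10 were called by the same test, against 0.0214% of all genes, and 1 of 10 (Rbm3) had an unadjusted p under 0.05, against 9.97%.

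Cirbp lay on both sides of vehicle across the doses of NRCWE-030 on day 1. Vehicle mice read 1.04, 1.10, 1.37, 1.51 and 1.51, and the 5 mice at 18 µg read higher without overlap (0.997% of all genes had none), at 1.61, 1.65, 1.75, 1.85 and 2.28. At 54 µg the mice read 0.79, 0.79, 0.80, 0.83 and 1.22, where 4 of 5 lay below every vehicle mouse. At 162 µg they spread from 0.56 to 1.36 (0.56, 0.84, 1.19, 1.33 and 1.36). The differences from vehicle were +0.52 (SE 0.16), -0.42 (SE 0.16) and -0.25 (SE 0.16), none of which passed as a single contrast (adjusted p = 0.45, 0.39 and 0.57, limma). On slides that held both, lungs given 18 µg exceeded those given 54 µg on 3 of 3 slides, by 0.95 to 1.07. When the slide or the day of scanning entered as a fixed block, however, the dose effect no longer passed (adjusted p = 0.058 and 0.065).

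The materials differed for Cirbp on day 1. NRCWE-030 minus NRCWE-025, tested over the 3 doses with limma's F-test in 1 fit of all groups, gave an adjusted p of 0.0022, and Cirbp was the 1 gene of the 10 that was called, against 0.155% of all genes. The 5 mice at 54 µg of NRCWE-025 read 1.36, 1.42, 1.69, 1.70 and 1.71, all above the 5 mice at 54 µg of NRCWE-030, as 0.991% of all genes were separate there. The difference at that dose was -0.69 (SE 0.14, adjusted p = 0.014), where 0.0589% of all genes were called, and it was -0.92 and -0.89 on the 2 slides that held both. At 18 and 162 µg the differences were +0.39 and -0.37 (adjusted p = 0.42 and 0.70). Leaving out replicate 1, 4 or 5 of NRCWE-025 54 µg, or replicate 1 or 2 of NRCWE-030 54 µg, moved the adjusted p of the 54 µg contrast to between 0.071 and 0.098, with differences from -0.68 to -0.66.

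**Figure D3:**
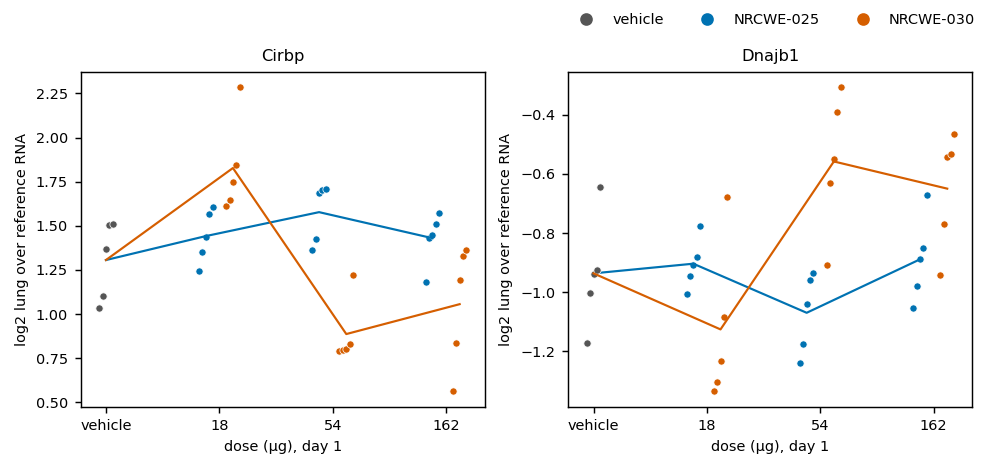
Cirbp and Dnajb1 on day 1 against dose for both materials, as log2 lung over reference, with 1 point per mouse and lines joining the group means, and the vehicle mice shared. At 54 µg of NRCWE-030 Cirbp is low (mean 0.89) and Dnajb1 high (mean -0.56), away from NRCWE-025 (1.58 and -1.07).

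Hspa1a and Dnajb1 leaned the other way at that dose and did not pass. Hsp90aa1, the inducible Hsp90, did not lean with them. Among all 69 arrays, with rank 1 the highest, it ranked 36, 38, 45, 58 and 61 at 54 µg of NRCWE-030. With NRCWE-025 at that dose it ranked 23, 29, 42, 44 and 52. Hspa1a read 1.07, 1.66, 1.79, 2.17 and 2.71 at 54 µg of NRCWE-030 on day 1 against 0.56, 0.79, 0.92, 1.05 and 1.40 at the same dose of NRCWE-025, a difference of +0.94 (SE 0.24, adjusted p = 0.18, limma). For Dnajb1 the readings were -0.91, -0.63, -0.55, -0.39 and -0.31 against -1.24, -1.17, -1.04, -0.96 and -0.94. These groups did not overlap, as for 0.991% of all genes, with a difference of +0.51 (SE 0.13, adjusted p = 0.18, limma). Over the 3 doses the adjusted p of the difference between materials was 0.090 for Hspa1a and 0.091 for Dnajb1. Hspa8 was within 0.36 of vehicle in all 6 groups of day 1, with the highest difference at 162 µg of NRCWE-030 (+0.26, SE 0.24) and the lowest at 54 µg of NRCWE-025 (-0.36, SE 0.21). Hsp90aa1 was -0.45 away from vehicle at 162 µg of NRCWE-030 (adjusted p = 0.081).

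Rbm3 rose at 162 µg of NRCWE-030 on day 1. The vehicle mice read -0.74, -0.70, -0.65, -0.45 and -0.45 and the treated mice -0.21, -0.15, -0.13, -0.11 and 0.04, so the groups did not overlap, as for 4.55% of all genes. The difference was +0.48 (SE 0.12, adjusted p = 0.045, limma), and Rbm3 was 1 of 10 genes called where 1.69% of all genes were. At 162 µg of NRCWE-025 the mice read -0.29, -0.27, -0.23, -0.19 and -0.07, again with no overlap with vehicle, as for 2.09% of all genes, with a difference of +0.39 (SE 0.08, adjusted p = 0.054), where 0 of 10 genes and 0.209% of all genes were called. On the 2 slides that held both vehicle and 162 µg of NRCWE-030 the differences were 0.30 and 0.74. The call was narrow: of the 20 arrays in the fit, omitting any 1 of 15 undid it, each of the 5 vehicle and 5 treated arrays among them, with adjusted p up to 0.12. A fixed block for the slide or for the day of scanning undid it too (adjusted p = 0.15 for both).

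The 2 probes of Rbm3 did not give the same answer. On the probe well above background on all 69 arrays, vehicle lungs averaged -1.29 ± 0.24 (SD, n = 5) on day 1, and 162 µg of NRCWE-030 averaged -0.29 ± 0.12 (SD, n = 5). Tested as a row of its own among 27253 probes, it gave +1.00 (adjusted p = 0.014, limma) for NRCWE-030 and +0.74 (adjusted p = 0.046) for NRCWE-025 at 162 µg. The other probe, which was not well above background on most arrays, differed by -0.04 (adjusted p = 0.96) and +0.03 (adjusted p = 0.93). The gene value is the median of both probes. Deviations of Rbm3 from its group means went with the array's share of spots above background (r = 0.60 over 69 arrays). With that share as a covariate, added after seeing the data, the bright probe gave +1.02 (adjusted p = 0.012) for NRCWE-030 and +0.68 (adjusted p = 0.20) for NRCWE-025. Neutrophil markers averaged between 2.59 and 3.14 in vehicle lungs on day 1 and between 2.99 and 3.55 at 162 µg of NRCWE-030. Of these 5 genes Csf3r was called (+1.25), and the others ran from -0.34 (Retnlg) to +0.42 (Cxcr2). Fat markers averaged between 1.77 and 4.84 in vehicle lungs and between 0.63 and 2.84 in treated lungs, with 5 of 5 genes below vehicle and Cidec called (-1.36, adjusted p = 0.031, limma). The part of these markers in the Rbm3 difference was not tested.

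**Figure D4:**
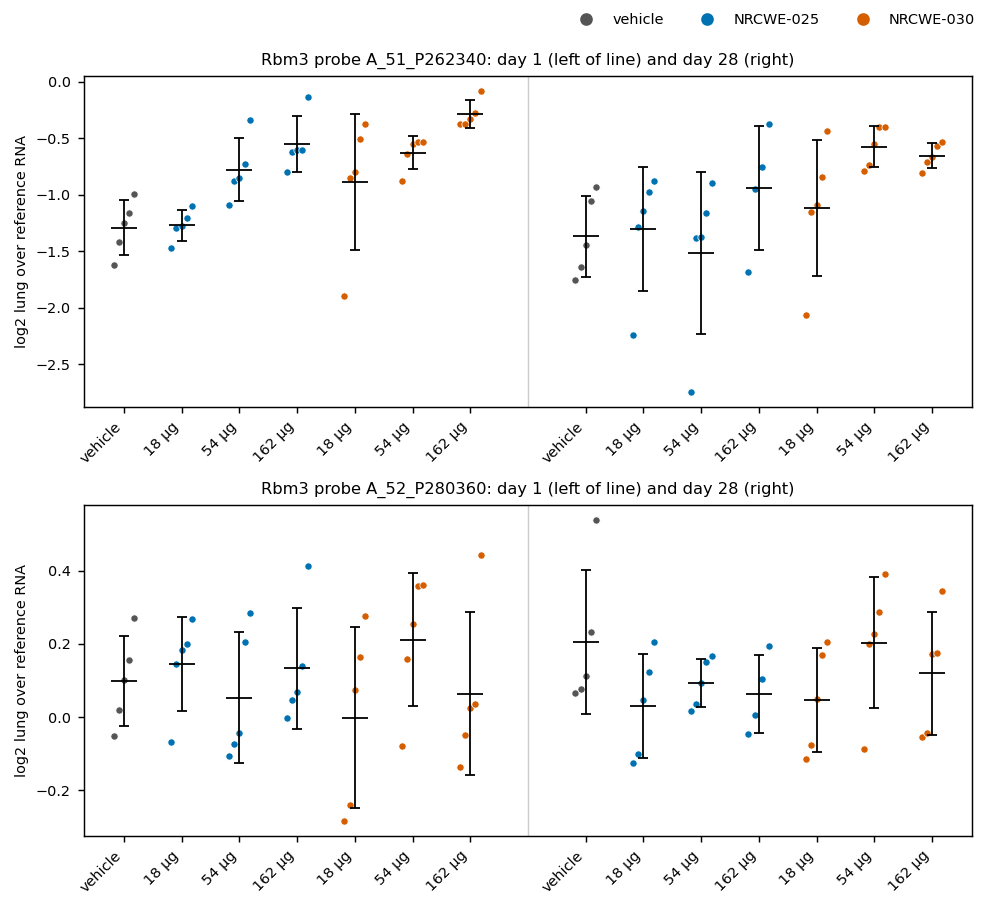
The 2 probes of Rbm3 in all groups, as log2 lung over reference, with 1 point per mouse and bars for the mean ± SD. The bright probe goes from -1.29 in day 1 vehicle lungs to -0.29 at 162 µg of NRCWE-030, and the dim probe from 0.10 to 0.06.

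Among mice of the same group, 16 of the 28 pairs of chaperone genes were positively correlated, and 12 did not pass. Each gene was taken as its deviation from the group mean on the 69 arrays, and the 45 pairs were tested by permuting deviations within groups (100000 permutations, two-sided, Benjamini-Hochberg over the 45 pairs). Of these, 16 pairs were positively and 3 negatively correlated at an adjusted p under 0.05. The 16 are all pairs of chaperones, while Hspe1 passed with only 1 of the other 7, Hsph1, and Hspa8 with Hsp90aa1 had r = 0.05. These correlations do not use the differences between groups. How many pairs over all genes would pass was not computed, so the count of 16 has no background beside it. For single pairs, the share of all genes as high with the first gene reached 17.5% (Hsph1 with Dnajb1). It was 10.2% for Hsph1 with Hspe1, 10.1% for Hsp90aa1 with Hspd1 and 7.51% for Hspa1b with Hspd1. For the rest of the 16 it was at most 6.05%.

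The inducible genes formed the closest part. Hspa1a and Hspa1b had r = 0.76 (Spearman rho = 0.67, adjusted p = 7.5e-05 and 9e-05 by permutation). How far their near-identical sequence gives them one reading was not tested. Hspa1a with Dnajb1 had r = 0.68 (rho = 0.60, adjusted p = 0.00023 and 0.0003 by permutation), and only 0.0054% of all genes were as strongly positive with Hspa1a. This pair leans on the split vehicle mice of day 28, and without that group r was 0.53 (adjusted p = 0.00084). Leaving out the 2 arrays with the most extreme Hspa1a values gave 0.75 for Hspa1b and 0.64 for Dnajb1.

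Hsph1 had the most partners, with 7 positive pairs. Over all genes, r with Hsph1 was also widely spread, mostly between -0.54 and 0.52, so many partners are not particular to chaperones. For Hsph1, r was 0.73 with Hsp90aa1 (rho = 0.67) and 0.67 with Hspd1 (rho = 0.65), each at an adjusted p of 7.5e-05 for r by permutation, and 0.63 with Hspa1b. Unadjusted, these p-values were 1e-05, the smallest that 100000 permutations can give. Only 0.016% and 0.075% of all genes were as high with Hsph1 as Hsp90aa1 and Hspd1 were. The weaker pair Hsph1 with Dnajb1, at r = 0.31 (rho = 0.36, adjusted p = 0.026 and 0.015), was not uncommon, since 17.5% of all genes were as high with Hsph1.

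Hspa8 itself was positively correlated with 4 of the other 9 genes. These were Hspd1 (r = 0.50, rho = 0.37, adjusted p = 0.0015 and 0.017), Dnajb1 (0.43, rho = 0.47, 0.0016 and 0.0012), Hspa1b (0.40, rho = 0.43, 0.0034 and 0.0029) and Hsph1 (0.38, rho = 0.37, 0.0098 and 0.017), all by permutation. Between 1.93% and 6.05% of all genes were as high with Hspa8 as these. Without the 2 arrays most extreme in Hspa8, r was 0.42, 0.44, 0.38 and 0.32. Hspa8 and Cirbp, opposite between groups on day 28, had r = -0.16 (rho = -0.15, adjusted p = 0.37 and 0.40) within groups, and r = -0.36 (adjusted p = 0.020) with slide means removed as well. Cirbp and Rbm3, both cold-inducible, had r = -0.09 (rho = -0.06, adjusted p = 0.61 and 0.68).

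Rbm3 ran against 3 chaperones, Hsp90aa1 (r = -0.66, rho = -0.43, adjusted p = 0.00023 and 0.0070), Hsph1 (r = -0.51, rho = -0.31, adjusted p = 0.0030 and 0.052) and Hspd1 (r = -0.37, rho = -0.27, adjusted p = 0.0082 and 0.069), by permutation, so only the first passed for rho. Between 1.56% and 4.86% of all genes had r as negative with the chaperone of a pair. Over all genes, r with Rbm3 lay mostly between -0.54 and 0.61. Rbm3 here is the median of its bright and dim probes, which gave different answers on day 1. Hspd1 with Rbm3 changed sign with the scanner's log ratio. The share of spots above background went with Hsp90aa1 (r = -0.62), Hsph1 (-0.45) and Hspa1b (-0.37) as well as with Rbm3. Removing it along with the group means left 15 positive and 4 negative pairs, and removing slide means left 17 and 4. The 3 Rbm3 pairs still passed after the first removal (r = -0.463, -0.329 and -0.302, in the order above). With slide means removed r was -0.51, -0.29 and -0.32, and Hsph1 with Rbm3 no longer passed (adjusted p = 0.094 by permutation).

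**Figure D5:**
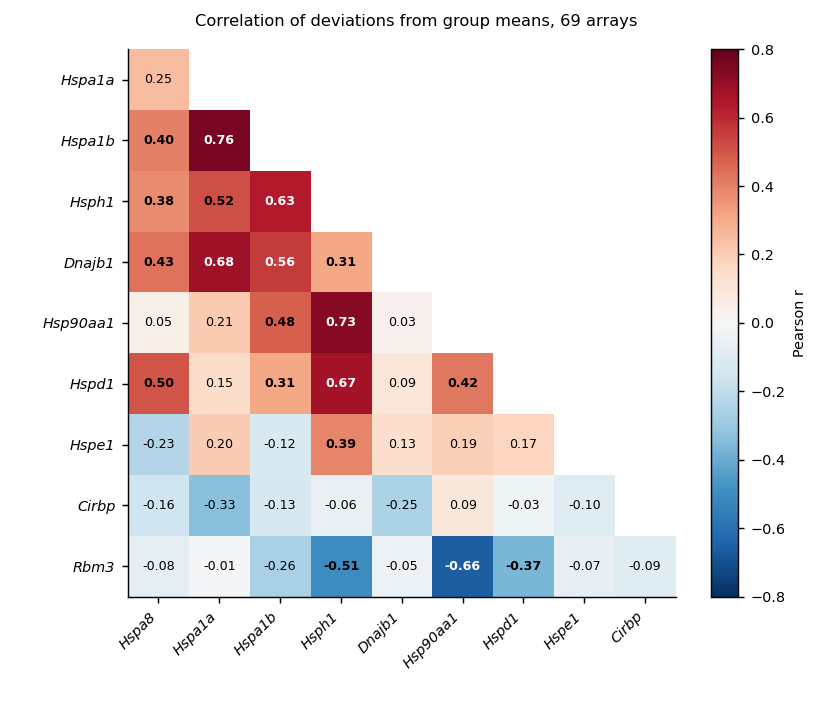
Pearson r of deviations from group means over 69 arrays for the 45 pairs of genes, with bold numbers for adjusted p under 0.05 by permutation within groups. Chaperone pairs run from -0.23 (Hspa8 with Hspe1) to 0.76 (Hspa1a with Hspa1b), with 16 of 28 positive and in bold, and Rbm3 is negative with Hsp90aa1 at -0.66.

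The mice of 1 group differed more in these genes than in most others. The within-group SD was 0.42 for Hsph1, 0.39 for Hspa1a and 0.33 for Hspa8, larger than in 96.1%, 94.6% and 90.3% of all genes, whose median was 0.17. It was larger than in 79.6% of genes for Hsp90aa1, 68.5% for Cirbp, 68.4% for Hspa1b and 67.2% for Rbm3. For Dnajb1 and Hspd1 these shares were 64.3% and 62.1%. Hspe1, at 0.18, lay in the middle (55.1%). This spread mixes mice, slides and scan days, and all genes include those not well above background. Among 13692 genes well above background on enough arrays, those whose deviations were most like Hspa8's were Plrg1 (r = 0.77), Ppm1g (0.75), Ppm1a (0.74), Gle1 (0.73) and Emc3 (0.72) over the 69 arrays, and those most unlike it Hmgb2 (-0.65), Ankra2 (-0.61), Rps21 (-0.60), Tmem161b (-0.59) and Ccnh (-0.58). For Cirbp they were Tk2 (0.60), Zbtb11os1 (0.57), Plekha6 (0.56), Glcci1 (0.55) and Zmym3 (0.53) at one end, and Zfp444 (-0.58), Dynll1 (-0.56), the Hsp90 co-chaperone Chordc1 (-0.55), Mysm1 (-0.54) and Rrn3 (-0.53) at the other. These ranks are a description with no test, and the points share the array, its depth and its slide.

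Of 42 other measured genes of the heat shock pathway (co-chaperones, small heat shock proteins and HSF1 targets), 1 was called at 162 µg of NRCWE-030 on day 1, against 1.69% of all genes, so the list's share was near that of all genes. This was Hmox1, haem oxygenase 1, which degrades haem and is induced by oxidants, at +0.94 (SE 0.23, adjusted p = 0.044, limma), and its call was undone by 15 of 20 omissions of a single array. The median of the list was +0.02 there, beside 0.0045 over all genes. On day 28 at 162 µg, 38 of 42 lay below vehicle for NRCWE-025 (median -0.22) and 36 of 42 for NRCWE-030 (median -0.18), beside 9575 and 9468 of 18660 genes (medians -0.0037 and -0.0020). The largest differences were those of Fkbp4, an Hsp90 co-chaperone (-0.59), Cct3, a subunit of the cytosolic chaperonin (-0.55), and Cacybp (-0.51) for NRCWE-025. For NRCWE-030 they were Fkbp4 (-0.55), the small heat shock protein Cryab (-0.46) and Hspa4l (-0.46). Both lists of day 28 differences rest on the same 5 vehicle mice and carry no test.

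Chaperones of the endoplasmic reticulum answer to unfolded secretory proteins. The list taken for them also holds other genes of that response, transcription factors among them. Of 17 measured, 3 rose past the threshold on day 1 at 162 µg of NRCWE-030, against 1.22% of all genes called as higher there, namely Sdf2l1 (+1.14, SE 0.18, adjusted p = 0.0023), the disulfide isomerase Pdia6 (+0.52, adjusted p = 0.019) and the secreted factor Manf (+0.62, adjusted p = 0.019, limma). The list's median was +0.43, beside 0.0045 over all genes, with 16 of 17 above vehicle. That count carries no test and has no count over all genes beside it. Once the slide or the day of scanning was a fixed block, 0 of 17 passed. On day 28 at 162 µg, 17 of 17 lay below vehicle for NRCWE-025 (median -0.24), led by Creld2 (-0.45), Herpud1 (-0.40) and Manf (-0.36). For NRCWE-030 13 of 17 did (median -0.10), led by Creld2 (-0.34), Calr (-0.30) and Hsp90b1 (-0.26). These day 28 counts rest on the same vehicle mice as those of the heat shock list, the mice that chose the set. They carry no test, and nothing is read from them. Counts and medians over all genes on that day are given beside the heat shock list.

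Clock genes, whose daily cycle goes along with body temperature, were looked at because Cirbp is known to follow temperature. Of 18, 3 were called at 162 µg of NRCWE-030 on day 1, against 1.69% of all genes, namely Bhlhe40 (+0.82, adjusted p = 0.0079), the clock activator Arntl (-1.51, adjusted p = 0.019) and the clock output Dbp (+1.79, adjusted p = 0.021, limma). Per2, a repressor of the clock (adjusted p = 1.7e-05), Arntl (0.0012) and the output factor Tef (0.0064) differed between the materials on day 1 by the same F-test that called Cirbp, 3 of 18 against 0.155% of all genes. On day 28 the largest differences at 162 µg were Dbp (+2.27), Arntl (-1.37) and Hlf (+1.22) for NRCWE-030 and Dbp (+0.52), Per1 (-0.43) and Npas2 (+0.23) for NRCWE-025. The labels used here give no hour of the day for any lung, so the hour and the group cannot be told apart.

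Immediate early genes, which answer within minutes to handling and stress, were called by the dose effect of NRCWE-030 on day 1 for 3 of 16, against 0.954% of all genes. These were the transcription factors Egr1 (adjusted p = 0.017) and Nr4a1 (0.024) and the phosphatase gene Dusp1 (0.044, limma). Their largest differences were at 18 µg, with +1.34 for Egr1, +1.47 for Nr4a1 and +1.26 for Dusp1. As single contrasts these did not pass, since 0 of 18660 genes were called as higher at that dose. The list averaged -0.51 in day 1 vehicle lungs and 0.07 at 18 µg of NRCWE-030. With NRCWE-025 it averaged -0.10, -0.02 and -0.06 on day 1 at the rising doses. At 162 µg of NRCWE-030, 0 of 16 passed and the median difference was +0.22. There 3 of 16 had an unadjusted p under 0.05, against 12.9% of all genes. On day 28 the largest at 162 µg were Egr1 (+0.82), Fos (+0.59) and Nr4a1 (+0.55) for NRCWE-025, and Egr1 (+1.04), Fos (+0.90) and Egr2 (+0.62) for NRCWE-030. Deviations of Hspa8 from its group means had r = 0.69 with the mean of the heat shock list, 0.43 with that of the endoplasmic reticulum list, 0.07 with that of the clock list and 0.01 with that of the immediate early list over the 69 arrays, as a description.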

How the data were processed

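Per the file headers, the deposited scanner files hold linear intensities (the median pixel of each spot, and that of the background around it, in both colours), read with Agilent Feature Extraction. They also hold a log10 ratio of Cy5 over Cy3 by the scanner software and flags of 0 or 1. The deposited series matrix holds log2 values normalized by the authors with LOWESS, array by array. Both served as alternatives. The array design refers to mm9, and symbols and sequences came from RefSeq tables for GRCm38.p6.

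Values were recomputed with limma 3.58.1 in R 4.3.3. Local backgrounds marked as outliers by the scanner software (1.53% in Cy5, 1.11% in Cy3) were set to the median of that array's remaining backgrounds, since with the deposited backgrounds the normexp fit failed on some arrays (fitted means down to -259.4 in Cy5). Then followed normexp with an offset of 50, loess within each array, the removal of flagged spots (0.292%), and the median over the spots of a probe and over the probes of a symbol. Of 41174 probes, 27484 had a symbol, and 93 of 18753 symbols were left out for a missing value. Correlations and sequences were handled in Python 3.11.15 with numpy 2.4.6, pandas 2.3.3 and scipy 1.17.1, and plots in matplotlib 3.10.9.

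A gene was called at an adjusted p under 0.05. All tests were two-sided, and adjusted p-values for groups are from limma. Each array is 1 mouse, so p-values measure the spread between arrays, and the number of arrays limits the precision. The main fits held no term for slide or scan day, so that spread mixes mice, slides and scan days. The limma fits were tested on simulated data with independent noise and no effect of slide or scan day, so that test does not cover such effects. The genes, the 4 lists, the markers and the replacement of backgrounds were chosen with earlier results of these data known. Named are all 10 genes. List genes are named only where they passed in a tested comparison (at most 5 a list) or were among the 3 largest differences at 162 µg on day 28, apart from likeness, where the 5 highest and 5 lowest are named. Alternatives were the background correction, Aquantile, the filter on dim probes, the choice of probe, flagged spots, slide and scan day as blocks, array quality, other vehicle mice, the ordinary F-test and the omission of single arrays.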

Additional observations from a re-analysis of the deposited data

Results flagged for a closer look

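In 5 of 140 groups (10 genes in 14 groups) the highest or lowest mouse lay far from the others by Dixon's ratio, which chance alone does in about 1 of 20 groups. Replicate 5 of NRCWE-030 54 µg on day 1 was high for Cirbp (1.22, where the other 4 mice were between 0.79 and 0.83). Replicate 2 of NRCWE-025 18 µg on day 1 was low for Hspa1b (-0.53) and high for Hspe1 (-1.42). Hsp90aa1 was high in replicate 3 of NRCWE-030 18 µg on day 1 (-0.21) and low in replicate 2 of NRCWE-030 54 µg on day 28 (-0.96).

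The effect of 54 µg on Cirbp on day 1 differed between the materials, with NRCWE-030 minus NRCWE-025 at -0.69 (adjusted p = 0.014, limma).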

How the results depend on the processing

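Of the 10 genes, 1 was called by the NRCWE-030 dose effect on day 1. The number was 2 with the scanner's log ratio, with the brightest probe of a gene or with the stricter filter on dim probes, 3 with a random effect of the slide, and 0 with the slide or the scan day fitted as a fixed term or with the ordinary F-test, by which 6 genes had an unadjusted p under 0.05. For NRCWE-025 the number went from 0 to 1 under the random slide effect. At 162 µg on day 1 it went from 0 to 1 for NRCWE-025 with the brightest probe, the stricter filter or the random slide effect, and from 1 to 0 for NRCWE-030 under either fixed term. The adjusted p of Rbm3 there was 0.60 with the scanner's log ratio. Between the materials the random slide effect gave 2 genes in place of 1. The share of all genes called moved too. For the NRCWE-030 dose effect (0.954% as reported) it was 1.02% with the scanner's log ratio, 1.03% with the brightest probe, 2.46% under the random slide effect, 0.584% and 0.461% under the fixed terms and 0.397% with the ordinary F-test. At 162 µg of NRCWE-030 (1.69%) it was 2.83% with the scanner's log ratio, 2.65% under the random slide effect and 0.386% and 0.268% under the fixed terms. Under the random slide effect it was 0.723% for the NRCWE-025 dose effect (0.0214%) and 0.429% between the materials (0.155%).

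At 162 µg of NRCWE-030 on day 1 the heat shock list had 1 call, 2 with the scanner's log ratio and 0 with the series matrix or either fixed term. The endoplasmic reticulum list had 3 calls, 5 with the scanner's log ratio and 0 under either fixed term. The clock list had 3 calls, 7 under the random slide effect and 6 under either fixed term. The cause of these changes was not tested.

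Leaving out 1 array at a time, the number of the 10 genes called ran from 1 to 3 for the NRCWE-030 dose effect, from 0 to 1 at 162 µg of NRCWE-025, from 0 to 2 at 162 µg of NRCWE-030 and from 1 to 3 between the materials. The lists ran from 0 to 2 (heat shock), from 1 to 4 (endoplasmic reticulum), from 1 to 7 (clock) and from 0 to 1 (immediate early). The material difference of Cirbp over the 3 doses kept its call in 30 of 30 such fits and under the 12 other alternatives.

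With day 1 vehicle mice as controls, an alternative chosen after seeing the data, the day 28 differences of Hspa8 were -0.034, -0.31 and -0.39 with NRCWE-025, and -0.35, -0.076 and 0.051 with NRCWE-030. Those of Cirbp were 0.33, 0.31 and 0.42 with NRCWE-025, and 0.53, 0.18 and 0.11 with NRCWE-030. The correlation of Hsph1 with Dnajb1 changed sign to -0.0095 with the brightest probe, and that of Hspd1 with Rbm3 to 0.010 with the scanner's log ratio. Positive pairs numbered 15 to 17 and negative pairs 3 to 4 over the 10 other alternatives, and 14 to 18 and 2 to 4 without 1 group. The share of spots above background as a covariate and the tests of single probes were also added after seeing the data. Signal over background limits the dim probes of Hspa1b and Rbm3. No paired analysis was possible because the labels number the mice serially and give no replicate shared between groups.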
